A study of Homo sapiens with 12 samples.

Results

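The genes of the proteasome and of its closest partners were followed through 3 lists of chromatin regions from RT112, a human bladder cancer cell line. Members were the protein-coding genes of GENCODE 44 on chromosomes 1 to 22 and X whose symbol is PSMA, PSMB, PSMC, PSMD, PSME, PSMF or PSMG followed by a number. They came to 48 of 19618 genes.

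The study mapped ARID1A, the DNA-binding subunit of SWI/SNF (a complex that remodels chromatin), by CUT&RUN, in which an antibody brings a nuclease to its target and the DNA released there is sequenced. The cells were thawed from frozen aliquots, were untreated, and carried no ARID1A mutation in the study's own classification. The 12 samples formed 4 groups of 3 replicates: ARID1A with an Abcam antibody, ARID1A with a CST antibody, H3K4me3 (a histone mark of active promoters), and IgG as the negative control. The authors merged the replicates into 1 list of positions per antibody, so the values below carry no replicate error and no depth, whether replicates were separate cultures is not stated, and the IgG regions were not analysed here.

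The proteasome degrades proteins tagged with ubiquitin. Its barrel, the 20S core, is built from alpha rings that gate entry and beta rings that cut proteins, and it is capped by the 19S particle, whose base unfolds substrates with ATPases and whose lid removes ubiquitin. Interferon exchanges the cutting subunits for those of the immunoproteasome, which favours peptides for antigen presentation. When the proteasome is inhibited, the transcription factor NFE2L1 raises many of these genes together through antioxidant response elements. In the study the proteasome entered through the inhibitor MG-132, which was used to ask whether the PI3K subunit PIK3R3 is degraded by the proteasome. MG-132 prevented the loss of PIK3R3 protein when the PI3K inhibitor protein PIK3IP1 was overexpressed. Immunoprecipitates of PIK3R3 also held PIK3IP1 and poly-ubiquitin, and the paper proposes that PIK3IP1 promotes degradation of PIK3R3.

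The promoter sequences printed here are those that hold the antioxidant response word TGACNNNGC (N is any base), the target of NFE2L1. It was singled out from 12 words searched, after the counts were seen: both ARID1A antibodies were at 14 of 15 members with it and at 13 of 24 members with H3K4me3 and without it, against 68.1% and 63.1% of other genes with H3K4me3. Each run reads 5′ to 3′ along the gene's strand, with the word in capitals on either strand (its reverse complement begins with GC). The sequences are RefSeq promoters on GRCh38.p14. Only matches before the RefSeq start were considered. This left out those of PSMC4 (position 27) and PSMD1 (position 39) and a second match of PSMD3 (position 33). Of the rest, 7 stretches lay outside every annotated exon and are shown, and each lay inside an Abcam, a CST and an H3K4me3 region. The stretches of PSMA4 and PSMG2 lay outside every ARID1A region, but they overlapped exons and so are not shown.
PSMB3, chr17:38752612-38752670, plus strand: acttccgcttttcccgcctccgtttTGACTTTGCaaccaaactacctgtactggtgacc
PSMB9, chr6:32854019-32854077, plus strand: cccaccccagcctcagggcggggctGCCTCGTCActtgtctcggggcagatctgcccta
PSMD3, chr17:39980745-39980803, plus strand: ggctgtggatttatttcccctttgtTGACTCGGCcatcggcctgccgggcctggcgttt
PSMD12, chr17:67366709-67366767, minus strand: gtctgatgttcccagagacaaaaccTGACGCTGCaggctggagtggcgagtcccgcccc
PSMD9, chr12:121888663-121888721, plus strand: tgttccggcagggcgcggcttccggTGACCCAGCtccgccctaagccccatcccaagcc
PSME1, chr14:24136083-24136141, plus strand: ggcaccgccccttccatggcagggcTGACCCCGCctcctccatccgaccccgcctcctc
PSMG1, chr21:39183601-39183659, minus strand: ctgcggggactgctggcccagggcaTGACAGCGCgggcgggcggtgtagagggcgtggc

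ARID1A was listed at the promoters of most proteasome genes, at a share close to that of other genes marked by H3K4me3. A region counted when it shared at least 1 bp with a window of 1 kb on either side of any transcription start site (TSS) of a protein-coding transcript. By this rule 37 of 48 members had an Abcam region, against a background of 46.7% of all genes, and 30 had a CST region, against 41.9%. Every member with a CST region also had an Abcam region, so that 30 of 48 members (62.5%, 95% exact interval 47.4 to 76.0) had both antibodies, where 38.2% of all genes did. A further 7 members had Abcam alone, none had CST alone, and 11 had neither. H3K4me3 lay at 45 of 48 members (93.8%, 82.8 to 98.7), against 53.1% of all genes.

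Within the genes that carried H3K4me3, members and other genes were close. Of the 45 members with the mark, 30 had both antibodies (66.7%, 51.0 to 80.0), while 63.7% of the 10364 other genes with H3K4me3 did (62.8 to 64.7). Abcam regions were at 82.2% of these members and 76.3% of the other genes. CST regions were at 66.7% of these members and 68.7% of the other genes. Abcam without CST was found at 15.6% of members with the mark and at 12.5% of other genes, and CST without Abcam at 0 of 45 members and at 4.96% of other genes. The intervals cover the counting of genes only, neighbouring genes can share a region, and no test of the difference was made. When narrow regions, those under the median width of a list, were left out, 13 of 48 members had both antibodies. Narrow H3K4me3 regions were left out too, so fewer genes counted as marked. Among these, 12 of 27 members had both antibodies (44.4%, 25.5 to 64.7), against 2781 of 5661 other genes (49.1%, 47.8 to 50.4). The order of the groups thus turned round, but the interval of the members holds the share of the other genes, so no order can be read from it.

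**Figure D1:**
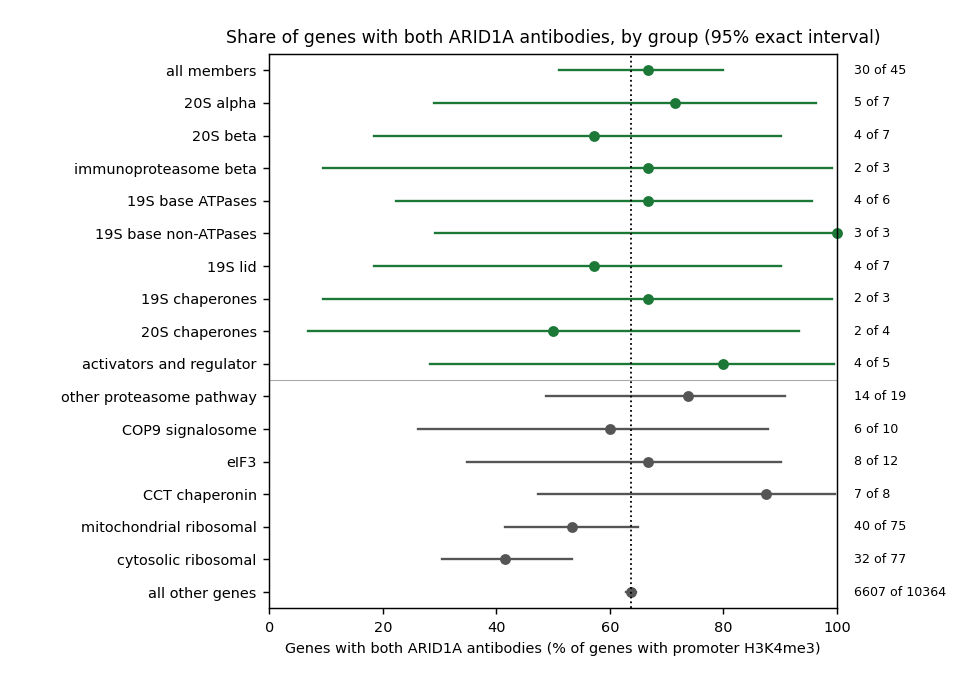
Share of genes with promoter H3K4me3 that had regions of both ARID1A antibodies, in percent, for the proteasome genes and their role groups (green, above the line) and for related complexes and all other genes (grey). Points are shares, bars are 95% exact intervals and the dotted line marks the other genes; every role group's interval spans that line.

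The alpha ring of the 20S core, whose subunits close and open the barrel, had both antibodies at 5 of 7 genes. PSMA3 had the widest CST region of all members, 2954 bp at chr14:58242721-58245674, over an Abcam region of 1911 bp at chr14:58243763-58245673. Their H3K4me3 region spanned 4026 bp, and the CST region ran past its upstream end. PSMA5 had Abcam and CST regions of 1616 and 1445 bp under 3998 bp of H3K4me3. PSMA6 had Abcam and CST regions of 1511 and 1616 bp at its internal TSSs, while no region of any list lay at its most upstream TSS. PSMA1 likewise had its 1299 bp Abcam and 1010 bp CST regions at a cluster of TSSs inside the gene, with 3018 bp of H3K4me3. Its far upstream TSS, shared with PDE3B on the other strand, carried 4091 bp of H3K4me3 and no ARID1A. At PSMA7 the Abcam region (1242 bp) and the CST region (1551 bp) overlapped by 120 bp only.

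The remaining alpha genes differed from each other. PSMA2 had an Abcam region of 1588 bp at chr7:42931799-42933386, shared with the mitochondrial ribosomal gene MRPL32 on the other strand, and 3270 bp of H3K4me3 at chr7:42930600-42933869, but its nearest CST region was 43010 bp away. PSMA4 had 2630 bp of H3K4me3 at chr15:78539649-78542278 and no ARID1A region of either antibody. Its nearest Abcam and CST regions were 20397 and 32398 bp away.

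The beta ring, which holds the cutting sites, had both antibodies at 4 of 7 genes. PSMB1, a structural beta subunit, had an Abcam region of 1775 bp and a CST region of 2186 bp, both shared with TBP, which encodes the TATA-box binding protein. PSMB2 had 1386 bp of Abcam and 973 bp of CST. PSMB3 had 1301 bp of Abcam and 1414 bp of CST inside the widest H3K4me3 region of any member, 10028 bp, which was wider than 99.7% of that list and also covered a promoter of PCGF2, a Polycomb gene. PSMB4, another structural beta subunit, had 2846 bp of H3K4me3 at chr1:151398454-151401299 and no ARID1A within 50 kb of its TSS.

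Each standard cutting subunit has an immunoproteasome counterpart, and the pairs differed in their regions. PSMB5 (chymotrypsin-like site) had 1144 bp of Abcam and 1294 bp of CST, and its counterpart PSMB8 also had both antibodies. PSMB6 (caspase-like site) had 2616 bp of H3K4me3 at chr17:4795262-4797877 and no ARID1A region, the nearest being 5435 bp (Abcam) and 5183 bp (CST) away. Its counterpart PSMB9 had both. PSMB7 (trypsin-like site) had an Abcam region of 1628 bp at chr9:124414508-124416135 under 2621 bp of H3K4me3 at chr9:124413840-124416460, with no CST region at its promoter. Its counterpart PSMB10 had neither antibody.

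In the MHC class II region of chromosome 6, the most upstream annotated TSSs of PSMB9 lie beside those of PSMB8 on the opposite strand. These TSSs of both genes fell in the same regions. These were an Abcam region of 1655 bp at chr6:32843623-32845277, a CST region of 1809 bp at chr6:32843598-32845406 and an H3K4me3 region of 3386 bp at chr6:32842567-32845952. They were the only regions shared by members, so at these regions PSMB8 and PSMB9 are not independent counts. PSMB9 had a set of its own at a TSS 10056 bp downstream of its first. The regions at this TSS alone give PSMB9 both antibodies. The RefSeq promoter of PSMB9 that held the antioxidant response word also lies at this TSS. TAP1, the gene of a peptide transporter of antigen presentation, starts there too. There the Abcam region was 1911 bp (chr6:32853156-32855066), the CST region 1623 bp (chr6:32853107-32854729) and the H3K4me3 region 3748 bp (chr6:32851779-32855526). PSMB10 on chromosome 16 had 2828 bp of H3K4me3 at chr16:67934999-67937826 alone, with the nearest Abcam region 68834 bp and the nearest CST region 29304 bp away.

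The immunoproteasome genes thus had both antibodies at 2 of 3 genes (66.7%, 9.4 to 99.2). The 20S core genes had both at 9 of 14 (64.3%, 35.1 to 87.2) and the lid genes at 4 of 8 (50%, 15.7 to 84.3). With the interferon-inducible activator genes PSME1 and PSME2 beside them, the immunoproteasome group had 4 of 5. PSME1 had 1609 bp of Abcam and 1114 bp of CST, and PSME2 had 2001 and 2126 bp, shared with RNF31. The intervals of the 3 groups overlap widely, that of the immunoproteasome genes spans nearly all values, and the shares cannot be ordered at these gene numbers.

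The core genes of restricted tissues had nothing. PSMA8, the alpha subunit of testis, and PSMB11, the beta subunit of the thymic cortex, had no region of any list at their promoters. The regions nearest to PSMA8 (Abcam chr18:26089227-26091623, CST chr18:26089013-26091643, H3K4me3 chr18:26088098-26091752) were between 42117 and 42246 bp away. PSMB11 lies next to PSMB5, whose Abcam (chr14:23034694-23035837), CST (chr14:23034298-23035591) and H3K4me3 (chr14:23033013-23035844) regions were its nearest, between 6368 and 6621 bp away.

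**Figure D2:**
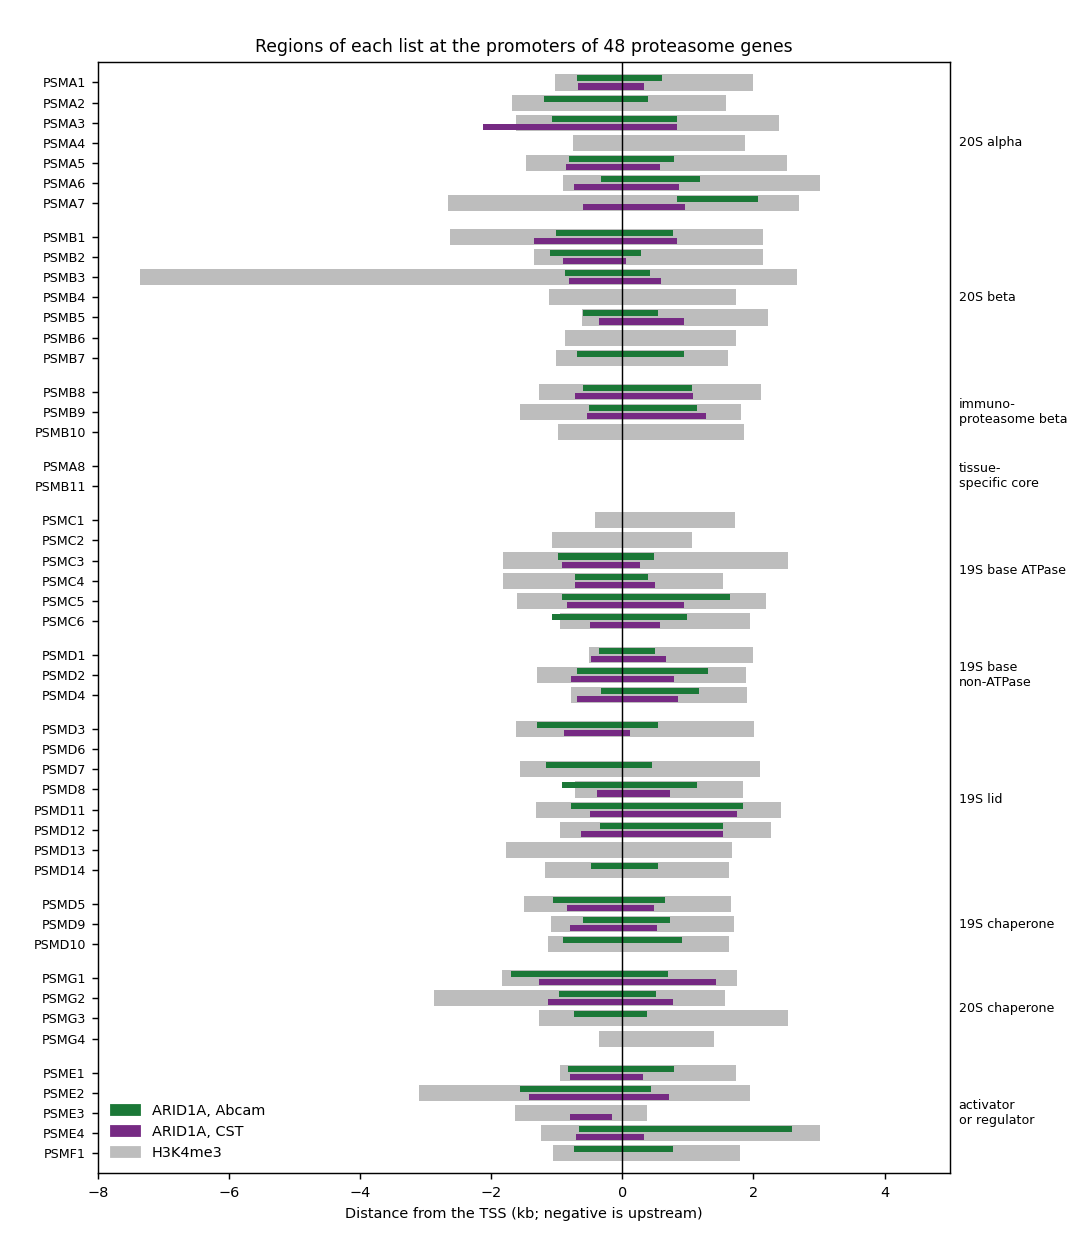
Positions of Abcam (green), CST (purple) and H3K4me3 (grey) regions at 48 proteasome genes, in kb from a TSS (upstream to the left), grouped by role. The TSS drawn is the one with regions of the most lists, the most upstream where several tie. It is the most upstream TSS at 42 genes. Regions beyond 1 kb of that TSS are not drawn, so PSME3 appears without its Abcam region. PSMA8, PSMB11 and PSMD6 have no region, and PSMB3 has the longest H3K4me3 region.

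The ATPases of the 19S base, which unfold substrates and thread them into the core, had both antibodies at 4 of 6 genes. PSMC5 stood among the 4 members with the widest sum of both antibodies, 4351 bp, with an Abcam region of 2566 bp at chr17:63826225-63828790 and a CST region of 1785 bp at chr17:63826310-63828094, both shared with FTSJ3. PSMC6 had 2067 bp of Abcam and 1064 bp of CST, and PSMC3 had 1471 and 1191 bp. PSMC4 was narrow in both lists, with 1115 and 1213 bp. PSMC1 had 2132 bp of H3K4me3 at chr14:90256110-90258241 and no ARID1A region nearer than 74522 bp (Abcam) and 74005 bp (CST). PSMC2 had H3K4me3 regions of 2129 bp (chr7:103343184-103345312) and 3572 bp (chr7:103346712-103350283) at its internal TSSs, while its nearest ARID1A regions were 178176 bp (Abcam) and 245269 bp (CST) away.

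The non-ATPase genes of the base, the scaffolds PSMD1 and PSMD2 and the ubiquitin receptor PSMD4, had both antibodies at 3 of 3. PSMD2 had 2005 bp of Abcam and 1567 bp of CST, and PSMD4 had 1504 and 1545 bp. At the first TSSs of PSMD1 Abcam covered 852 bp and CST 1137 bp, and a wider Abcam region of 1703 bp lay near an internal TSS with neither CST nor H3K4me3.

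The lid was divided. Both antibodies were listed at PSMD3, PSMD8, PSMD11 and PSMD12, and not at PSMD6, PSMD7, PSMD13 and PSMD14. PSMD11 had 2618 bp of Abcam (chr17:32443596-32446213) and 2247 bp of CST (chr17:32443884-32446130), a sum of 4865 bp that PSMA3 equalled. PSMD12 had 1878 and 2165 bp, and the regions of both lists ended at the same base within the gene. PSMD3 had 1848 bp of Abcam and 1005 bp of CST, and PSMD8 had 2049 and 1127 bp. PSMD14, the enzyme that removes ubiquitin, had the narrowest Abcam region among the widest regions of the members, 1021 bp at chr2:161307946-161308966, with 2817 bp of H3K4me3 (chr2:161307237-161310053) and no CST region within 50 kb. Its partner PSMD7 had 1622 bp of Abcam at chr16:74295649-74297270, 3664 bp of H3K4me3 at chr16:74295245-74298908 and its nearest CST region 70582 bp away. PSMD13, which shares its promoter with SIRT3 on the other strand, had 3460 bp of H3K4me3 at chr11:235194-238653 and neither antibody, with Abcam and CST regions 28883 and 148044 bp away.

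PSMD6, another lid subunit, was the only member of the general proteasome with no region of any list. Its nearest Abcam region (chr3:63936946-63938767) was 80567 bp, its nearest CST region (chr3:63937482-63938801) 80533 bp and its nearest H3K4me3 region (chr3:63862389-63865380) 153954 bp from a TSS. Depth is unknown here, so PSMD6 can only be described as having no region listed.

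Dedicated chaperones build the particle. For the 19S base, PSMD5 had 1714 bp of Abcam and 1322 bp of CST, and PSMD9 had 1333 and 1335 bp. PSMD10, also known as the oncoprotein gankyrin, had 1818 bp of Abcam at chrX:108090634-108092451, shared with ATG4A, 2768 bp of H3K4me3 at chrX:108089910-108092677 and no CST region. For the 20S core, the partners PSMG1 and PSMG2 had both antibodies and the partners PSMG3 and PSMG4 did not. PSMG1 had the widest sum of all members, 5109 bp, from an Abcam region of 2404 bp (chr21:39182788-39185191) and a CST region of 2705 bp (chr21:39182065-39184769). PSMG2 had 1480 and 1915 bp at internal TSSs shared with CEP76, and its most upstream TSS had H3K4me3 alone. PSMG3 had 1110 bp of Abcam at chr7:1570630-1571739 and 3794 bp of H3K4me3 at chr7:1568479-1572272, with a CST region 2000 bp from a TSS that entered when the window was widened to 3 kb. PSMG4 had the narrowest H3K4me3 region of the members, 1749 bp at chr6:3258539-3260287, and ARID1A no nearer than 5533 bp (Abcam) and 5429 bp (CST).

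Among the activators and the regulator, 4 of 5 genes had both antibodies. PSME4, the activator PA200, had the widest Abcam region of all members, 3256 bp, over a CST region of 1037 bp, both shared with ACYP2. PSME3, the nuclear activator PA28 gamma, was the only member whose antibodies lay at different TSSs. Its CST region of 642 bp, the narrowest of the members, lay upstream of the first TSS, and its Abcam region of 1540 bp lay at the internal TSSs, and both regions also counted for BECN1. PSMF1, the inhibitor PI31, had 1511 bp of Abcam at chr20:1117855-1119365 and 2857 bp of H3K4me3 at chr20:1117533-1120389, and no CST region.

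Widths were described by the widest promoter region of each gene with H3K4me3, since the lists hold no signal. The median Abcam width was 1622 bp over 37 members (range 1021 to 3256 bp) and 1781.5 bp over the other genes. The median CST width was 1429.5 bp over 30 members (642 to 2954 bp) and 1652 bp over the other genes. The median H3K4me3 width was 3361 bp over 45 members (1749 to 10028 bp) and 3155 bp over the other genes. Members were thus narrower at the median in both ARID1A lists and wider in H3K4me3, and in each list the median of the other genes fell between the quartiles of the members. The quartiles were 1471 and 1911 bp for Abcam, 1129.5 and 1809 bp for CST, and 2817 and 3798 bp for H3K4me3.

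**Figure D3:**
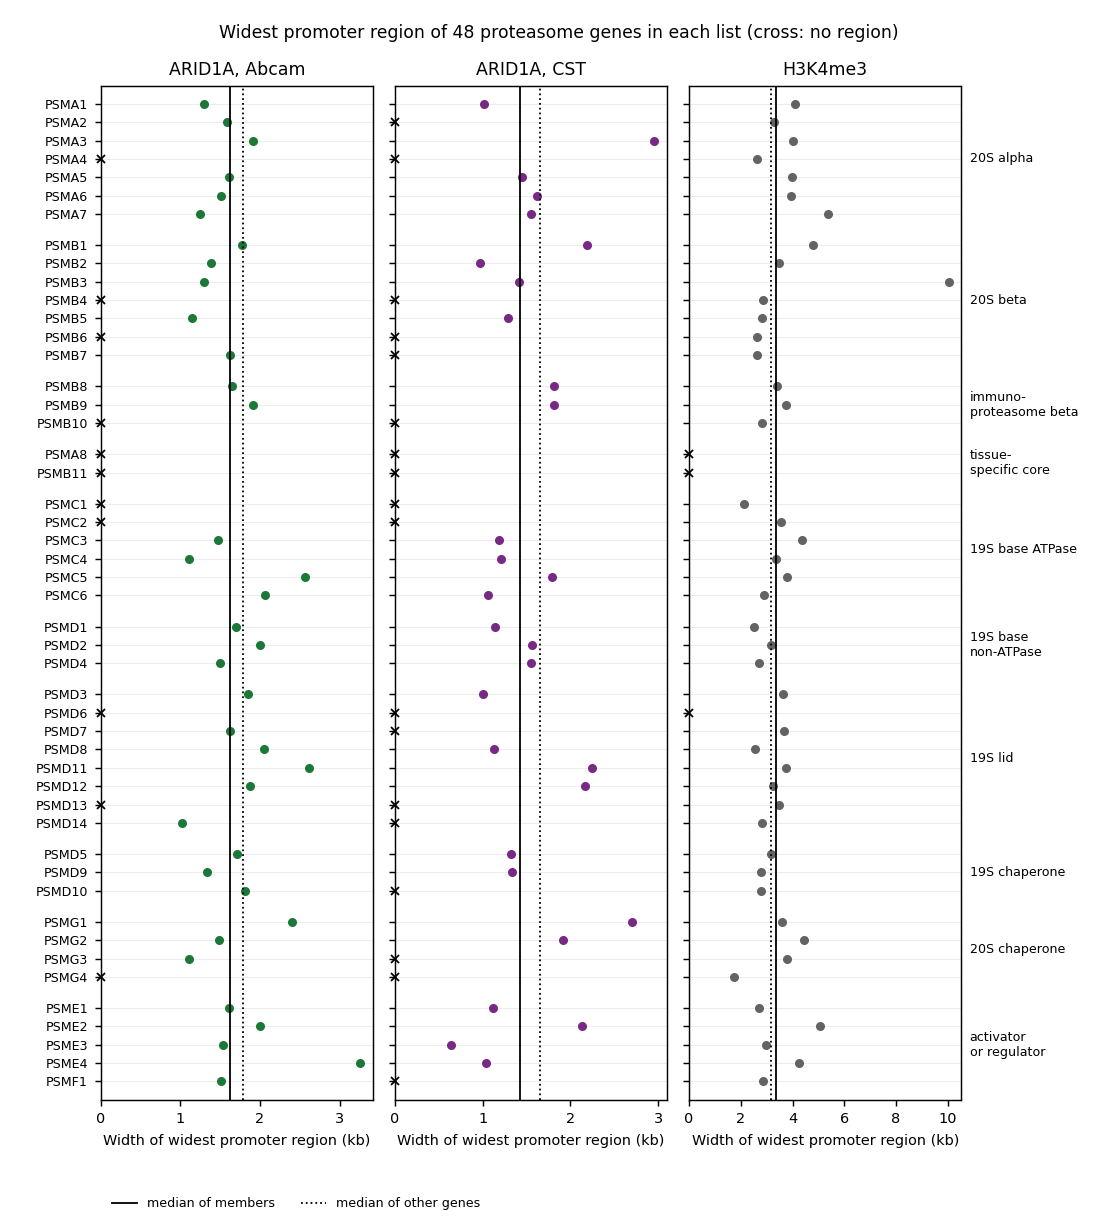
Width of the widest promoter region of each proteasome gene in kb, for Abcam, CST and H3K4me3, with genes grouped by role; a cross marks a gene with no region. Solid and dotted lines are the medians of the members and of other genes with H3K4me3, 1622 and 1781.5 bp for Abcam, 1429.5 and 1652 bp for CST, and 3361 and 3155 bp for H3K4me3.

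The share of genes with both antibodies moved with the width of H3K4me3, in the members as in other genes. The classes were cut at the quartiles of the other genes. Up to 2566 bp, both antibodies were at 1 of 3 members and at 48.9% of other genes. From there to 3155 bp they were at 7 of 15 members (46.7%) and at 59.7% of other genes. Up to 3893 bp they were at 11 of 16 members (68.8%) and at 66.6% of other genes. Above that they were at 11 of 11 members (100%, 71.5 to 100) and at 79.8% of other genes. The members with the widest marks were PSMA1, PSMA3, PSMA5, PSMA6, PSMA7, PSMB1, PSMB3, PSMC3, PSME2, PSME4 and PSMG2, so 5 of the 11 are alpha subunits. PSMA1 entered this class by the 4091 bp mark at its far upstream TSS, which had no ARID1A, while the mark over its ARID1A regions was 3018 bp wide. All 8 members with H3K4me3 and no ARID1A (PSMA4, PSMB4, PSMB6, PSMB10, PSMC1, PSMC2, PSMD13 and PSMG4) lay in the lower 3 classes.

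**Figure D4:**
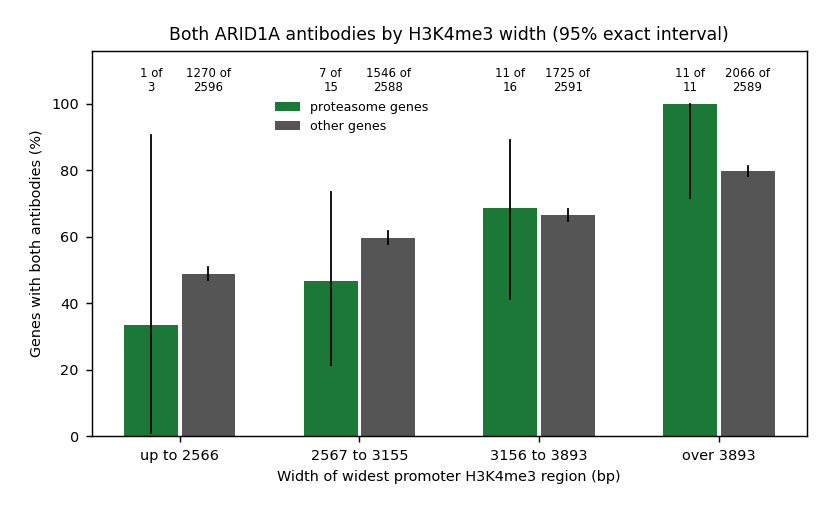
Share of genes with both ARID1A antibodies (percent, bars) in 4 classes of H3K4me3 width (bp), for proteasome genes (green, left) and other genes with H3K4me3 (grey, right), with 95% exact intervals as lines and counts above. The share is higher in each wider class, reaching 11 of 11 proteasome genes and 79.8% of other genes.

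Members had a median of 4 annotated TSSs, and the other genes, with the mark or without it, had 3. Among genes with H3K4me3, 5 or more TSSs were annotated at 35.6% of members and 40.2% of other genes. A single TSS was annotated at 6.7% of these members and 15.1% of other genes. With 5 or more TSSs, 11 of 16 members (68.8%) and 68.4% of other genes had both antibodies. With 2 to 4 TSSs, 17 of 26 members (65.4%) and 61.3% of other genes did. With 1 TSS, 2 of 3 members and 58.8% of other genes did. A gene on the opposite strand whose most upstream TSS lay within 1 kb was found at 12 members with H3K4me3, of which 9 had both antibodies (75%), against 68.0% of other genes with such a neighbour. Without one, 21 of 33 members (63.6%) and 62.6% of other genes had both.

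Where both antibodies were listed, they lay together over the TSS. Abcam and CST regions overlapped each other at 29 of 30 members (96.7%) and at 99.3% of other genes with the same marks, PSME3 being the exception. The centre of the Abcam region lay at a median of -27.75 bp from the nearest TSS in members and -15 bp in other genes (negative is upstream), and that of the CST region at -126.5 bp in members and -24 bp in other genes. Abcam regions lay wholly inside the widest H3K4me3 region at 26 of 30 members (86.7%) and at 71.3% of other genes. CST regions did so at 26 of 30 members (86.7%) and at 73.1% of other genes. The widest regions of different lists can lie at different TSSs. At PSMA1 (both antibodies), PSMB9 and PSME3 (CST) the region lay outside the widest mark but inside another H3K4me3 region of the gene. H3K4me3 reached further into the gene than away from it, a median of 1882 bp downstream and 1319 bp upstream of the first TSS over 41 members, and 1863 and 1151 bp over other genes. The Abcam region was the wider at 16 of 30 members (53.3%) and at 63.7% of other genes.

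The promoters of 42 members were matched to RefSeq, 51 promoters of 300 bases (250 before the start and 50 after). PSMA7, PSMB1, PSMB6, PSMB7, PSMD4 and PSMG3 are without one here. Their median GC content was 62.0%, against 65.3% over promoters of other genes with H3K4me3. They were searched on both strands for 12 words, 1 of them a control. A match describes letters only and is not a binding site.

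The antioxidant response word TGACNNNGC was in 15 of 51 member promoters (29.4%), against 13.4% of all 34961 promoters and 14.4% of those of other genes with H3K4me3. No match overlapped another word searched, the AP-1 word TGANTCA included. The 15 genes were PSMA4, PSMB3, PSMB9, PSMC4, PSMC5, PSMD1, PSMD3, PSMD5, PSMD9, PSMD12, PSME1, PSME2, PSME4, PSMG1 and PSMG2. Of these, 14 (93.3%, 68.1 to 99.8) had both ARID1A antibodies, while 13 of 24 members with H3K4me3 and without the word did (54.2%, 32.8 to 74.4). Among other genes with H3K4me3 the shares were 68.1% with the word and 63.1% without. The reversed control word CGNNNCAGT was in 15.7% of member promoters, against 8.15% of all promoters and 11.4% of those of other genes with H3K4me3. For this control, both antibodies were at 6 of 8 members with it and at 21 of 31 without it. Other genes with H3K4me3 had 65.7% with the control word and 63.8% without. The exception among the 15 genes with the antioxidant response word was PSMA4, whose match TGACTCTGC at position -126 lay inside H3K4me3 with no ARID1A region. PSMG2 counts among the 14, but its match, TGACCCCGC at position -39, lay at the upstream start, outside any ARID1A region.

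The interferon-response word GAAANNGAA, the core of sites for IRF factors, was in 8 of 51 member promoters (15.7%), against 8.11% of all promoters and 6.32% of those of other genes with H3K4me3. The genes were PSMA4, PSMB4, PSMB8, PSMB10, PSMC2, PSME1, PSME2 and PSMG4, and 3 of the 8 had both antibodies, against 24 of 31 members with H3K4me3 and without the word. In PSMB10 and PSMG4, both without ARID1A, the match was GAAAGCGAA, at positions -21 and -33. The same letters stood at -28 in PSME2 and, on the other strand as TTCGCTTTC, at -3 in PSMB8 and at 6 in PSME1, and these 3 genes had both antibodies. Among other genes with H3K4me3, both antibodies were at 63.2% with the word and 64.2% without.

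Of the remaining words, the ETS word CCGGAA was in 43.1% of member promoters, against 17.3% of all promoters and 29.1% of those of other genes with H3K4me3. The YY1 word GCCATNTT was in 21.6% of member promoters, against 6.58% of all promoters and 10.1% of those of other genes with H3K4me3. Of 34 ETS matches 2 overlapped the word GGGCGG, and no YY1 match overlapped another word. Both antibodies were at 12 of 20 members with the ETS word and at 15 of 19 without it, where other genes with H3K4me3 had 58.8% with and 67.4% without. For the YY1 word they were at 6 of 9 members with it and at 21 of 30 without it, where other genes had 61.4% with and 64.5% without. No member promoter held the CRE word TGACGTCA, which was in 1.85% of all promoters. The STAT word TTCNNNGAA was in 15.7% of member promoters, against 5.91% of those of other genes with H3K4me3. Both antibodies were at 6 of 7 members with it and at 21 of 32 without it, where other genes had 66.6% and 63.9%. The AP-1 word and the E-box word CACGTG each gave 3 of 3 with and 24 of 36 without. Other genes with H3K4me3 had 76.4% with and 63.3% without the AP-1 word, and 65.6% and 63.9% for the E-box word. GGGCGG (SP and KLF) gave 20 of 28 and 7 of 11, where other genes had 66.0% and 56.6%. CCAAT (NF-Y) gave 12 of 18 and 15 of 21, where other genes had 70.7% and 58.8%. TGCGCANGC (NRF1) gave 1 of 3 and 26 of 36, where other genes had 70.6% and 63.3%. For NF-Y and NRF1 the order in members was the reverse of that in other genes. As 12 words were examined and none was tested, these splits are a description.

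**Figure D5:**
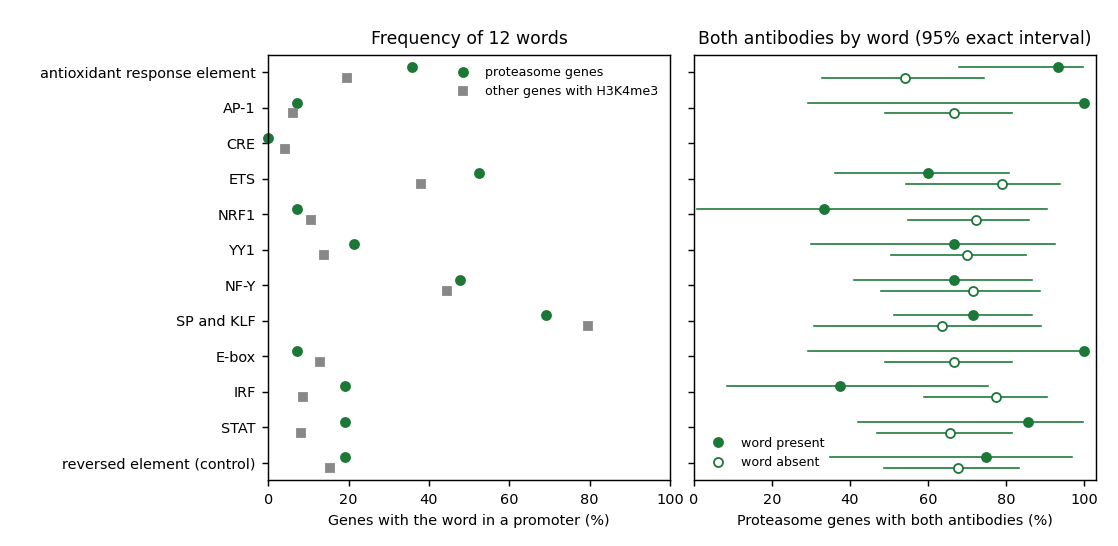
Left, share of genes with each of 12 words in a RefSeq promoter (percent), for 42 proteasome genes (green circles) and other genes with H3K4me3 (grey squares). Right, share of proteasome genes with H3K4me3 that had both ARID1A antibodies (percent, 95% exact intervals), with the word (filled) and without it (open): 93.3% and 54.2% for the antioxidant response word; CRE has no member with the word.

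Genes of the pathway outside the symbol rule were taken from a list of 19, all with H3K4me3, of which 14 (73.7%, 48.8 to 90.9) had both antibodies. The transcription factor NFE2L1, its activating enzymes DDI2 and NGLY1, the ubiquitin receptor ADRM1 and the deubiquitinases USP14 and UCHL5 were among them. Those without both included POMP, the maturation factor of the 20S core, PSME3IP1, TXNL1 and UBQLN2. Set beside complexes of similar build, the 66.7% of the proteasome genes compared with 7 of 8 genes of the CCT chaperonin, 8 of 12 of eIF3 and 6 of 10 of the COP9 signalosome, which is related to the lid. Mitochondrial ribosomal protein genes had 53.3% (41.4 to 65.0) and cytosolic ribosomal protein genes 41.6% (30.4 to 53.4), although all 77 of these carried H3K4me3.

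H3K4me3 was at 12 of 15 urothelial and epithelial marker genes and at 0 of 11 markers of other cell types. Both ARID1A antibodies without the mark were at COL1A1, a fibroblast gene, and at the urothelial marker UPK2. The markers without the mark were KRT20, UPK2 and UPK3A, genes of terminal urothelial cells, and these lists do not identify RT112 itself. The lists held 37501 Abcam, 32932 CST and 9765 H3K4me3 regions on the chromosomes used.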

How the data were processed

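The authors trimmed reads (cutadapt), aligned them to the human genome with bwa-mem2, removed duplicates (Picard) and reads without a unique position (samtools), scaled replicates by E. coli spike-in reads, called peaks with SEACR and joined those of 3 replicates into 1 list (bedtools). The submitters' processing notes also name bcl2fastq, deepTools and hg38; versions are not given in the sources used here. The methods name SEACR's relaxed mode while the list names say stringent, so the threshold is uncertain, and only a small top fraction of peaks was kept, so an absent region can be one that was called but not retained. Merging keeps a region that 1 replicate may have carried, and near-identical sequence can be left without regions. The deposited files hold chromosome, start and end only, without signal, score or p-value; positions are printed counting from 1, and no region passed the end of its hg38 chromosome. Library preparation used 2 batches whose membership is not given.

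TSSs came from GENCODE 44 (8 symbols with several gene IDs were merged). Overlaps, exact binomial (Clopper-Pearson) intervals and figures were made with Python 3.11.15, numpy 2.4.6, scipy 1.17.1 and matplotlib 3.10.9. On simulated regions the overlap step recovered 200 of 200 planted genes among 19618. No test was made, since the lists carry no replicates. The members, role lists, words and alternatives were chosen with earlier results of these data known. Regions left out on other sequences were 152 Abcam, 159 CST and 14 H3K4me3. Full positions are given for immunoproteasome genes, members without an antibody or without H3K4me3, and the 4 members with the widest sum of both antibodies, and widths for the other members. A gene of the pathway list is counted but not reported by name here.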

Additional observations from a re-analysis of the deposited data

How the results depend on the processing

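The 10 results were recomputed under 8 alternatives, giving 76 values, of which 65 stayed inside the 95% interval of the reported value and 11 moved out of it. Windows of 500 bp and 3 kb, a minimum width of 200 bp, fusion of regions less than 500 bp apart, overlap of the antibodies at 1 TSS and a region on the TSS itself left the members with both antibodies at 29 to 31, and the most upstream TSS alone left 26 (without PSMA1, PSMA6, PSME3 and PSMG2). Leaving out regions under the median width of a list gave both antibodies at 27.1% of members (13 of 48), at 44.4% of members with H3K4me3 against 49.1% of other genes, at 28.6% of 20S core genes and at 25% of lid genes (2 of 8), H3K4me3 at 56.2% of members, and median widths of 1809 bp (CST) and 3748 bp (H3K4me3). The share over other genes with H3K4me3, whose interval is narrow, was 62.7% with 500 bp, 66.1% with 3 kb, 60.6% with the most upstream TSS and 59.8% with a region on the TSS. The immunoproteasome share stayed at 66.7% under every alternative run, but its interval (9.4 to 99.2) is too wide to show stability. The lid share and the Abcam width stayed inside their intervals, which for the lid is too wide (15.7 to 84.3) to show stability.

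No paired analysis was possible because the lists are merged over replicates, and for the same reason there was no fit without 1 replicate. Depth is unknown, and an absent region cannot be told apart from one under the threshold. Width is not signal. Role groups hold few genes, and their intervals cover the counting of genes only.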

Other observations

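Among members without ARID1A, 4 had no region of either antibody within 50 kb of their most upstream TSS: PSMB4, PSMC1, PSMC2 and PSMD6. PSMD6 lay in a stretch of 2171807 bp without a listed H3K4me3 region, together with PRICKLE2 and ADAMTS9. PSMC2 lay with DNAJC2, PMPCB and SLC26A5 in a stretch of 442261 bp without an Abcam region, and PSMD7 with ZFHX3 in a stretch of 1297783 bp without a CST region. These values were chosen after they were seen. Neither the count nor the stretches were worked out for other genes, so they have no background here and do not mark the members as unusual.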
